A study of Mus musculus with 22 samples.

Results

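Bone morphogenetic proteins (BMPs), with the proteins that hold them back and the genes they switch on, were followed by 9 genes in the distal colon of C57BL/6, Winnie and Winnie-Prolapse mice. The genes were 5 ligands (Bmp2, Bmp3, Bmp4, Bmp5 and Bmp7), 2 secreted antagonists (Grem1 and Chrdl1) and 2 genes that BMP signaling induces (Id1 and Smad6). They were found by their symbols and are 9 of the 46078 genes in the count table. All 9 passed the filter on low counts in each comparison.

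Poly(A) RNA was sequenced from 22 mice, 1 library per mouse. C57BL/6 mice (n = 8, 4 males and 4 females) were 14 weeks old wild-type controls. Winnie mice (n = 7, 3 males and 4 females) were also 14 weeks old, have a missense change in Muc2, which encodes the main mucin of colonic mucus, and become colitic without treatment. Winnie-Prolapse mice (n = 7, 4 males and 3 females) are Winnie mice with prolapse, labelled as severely inflamed, and were 18 weeks old, so that age and prolapse cannot be told apart. No mouse was given a drug, the mutation is in the germline rather than in 1 cell type, and the labels do not say whether the muscle layer was kept with the mucosa. Total counts per library were 25.4 to 31.5 M in C57BL/6, 25.9 to 36.3 M in Winnie and 24.8 to 33.8 M in Winnie-Prolapse. The comparisons ask which genes differ with chronic colitis and with its severe form.

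BMPs are secreted dimers of the TGF-beta superfamily that bind type I and type II serine/threonine kinase receptors, which phosphorylate SMAD1, SMAD5 and SMAD9. The phosphorylated SMADs join SMAD4 in the nucleus and switch on genes such as Id1 and the inhibitory SMADs. In the colon, BMP activity is known to be high at the crypt top and low at the base, where stromal and muscle cells secrete antagonists such as gremlin 1 that protect the stem cell zone.

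Several libraries stood apart and are named before the results. Winnie-Prolapse replicate 6 had 18.0% of its counts in 6 milk protein genes, against at most 0.00542% in any other library. Winnie-Prolapse replicate 7 had the highest summed level of 10 squamous epithelium markers, at 3600 CPM, the count scaled by the library's total count. The milk counts are part of the total of Winnie-Prolapse replicate 6 and so lower the CPM of its other genes. That library had the lowest Bmp3, Bmp4, Chrdl1, Id1 and Smad6 levels of its group. C57BL/6 replicate 7 had the highest Muc2 level (7901 CPM), the highest smooth muscle sum (15032 CPM) and the lowest leukocyte sum (48.7 CPM) of its group. Winnie replicate 5 had the lowest squamous sum (6.23 CPM) and the highest enteric neuron and glia sum (83.0 CPM) of its group, both within the C57BL/6 range. Without it, the calls over all genes in Winnie against C57BL/6 went from 16 of 17289 to 677 of 17413 (3.89%). For Muc2, the C57BL/6 libraries averaged 3594 CPM (SD 1791, n = 8), those of Winnie 2135 CPM (SD 813, n = 7) and those of Winnie-Prolapse 1889 CPM (SD 589, n = 7). A gene count cannot show a missense mutation, so these levels do not check the labels. The epithelial list was detected in every group with none of its 10 genes at 0, and its summed CPM overlapped between all groups.

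A gene was called where edgeR's quasi-likelihood test gave a Benjamini-Hochberg adjusted p under 0.001 and a change of at least 1.5-fold, and the words upregulated and downregulated refer to such calls. A looser limit, an adjusted p under 0.05 with the same fold, is named where used. Log2 fold changes are given with their standard error (SE).

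Of the 9 genes, 4 were called between Winnie-Prolapse and C57BL/6. Bmp7 was upregulated, and Bmp3, Smad6 and Chrdl1 were downregulated. Over all 17397 genes tested, 9.84% were called higher and 8.47% lower. At the looser limit Grem1 joined on the higher side and Bmp2 on the lower side, giving 2 higher and 4 lower, with 16.7% and 17.7% of all genes past that limit. The CPM ranges of the 2 groups did not overlap for 3 genes (Bmp3, Bmp7 and Smad6), as was the case for 16% of all genes tested. Without Winnie-Prolapse replicates 6 and 7, when 8.03% of all genes were called higher and 4.36% lower, 2 of the 9 were called: Bmp3 (log2 fold change -1.81, adjusted p = 6.78e-06, edgeR) and Bmp7 (1.79, adjusted p = 1.87e-05). Smad6 (-1.38, adjusted p = 0.00303) and Chrdl1 (-1.06, adjusted p = 0.00297) then missed the limit on the adjusted p. Without C57BL/6 replicate 7, when these shares were 10.8% and 9.35%, 4 of the 9 were called, with Bmp2 in place of Smad6 (-1.37, adjusted p = 0.00124).

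Between Winnie and C57BL/6, edgeR called 0 of the 9 genes. Of all 17289 genes, 0.0868% were called higher and 0.00578% lower. DESeq2 called 2 of the 9 (Bmp7 and Bmp3) beside 3.92% of all genes higher and 2.4% lower, and limma-voom called 0 of the 9 and 0% of all genes. An unadjusted p under 0.05 was found for 5 of the 9, and for 39.9% of all genes. Without Winnie replicate 5, edgeR called 2 of the 9, again Bmp7 and Bmp3. At the looser limit Bmp5, Bmp7 and Id1 were higher and Bmp3 was lower, beside 7.42% of all genes higher and 8.53% lower. Without C57BL/6 replicate 7, Bmp2 passed this limit as lower (log2 fold change -0.61, adjusted p = 0.012, edgeR), and Bmp5 fell short of 1.5-fold (0.57), as it did without Winnie replicate 6 (0.56). Id1 fell short of it without Winnie replicate 7 (0.50). Chrdl1 passed the looser limit as lower without Winnie replicate 3 (-0.71, adjusted p = 0.0484) and without Winnie replicate 5 (-0.70, adjusted p = 0.0446). None of the 9 genes had ranges that did not overlap, against 1.64% of all genes.

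In Winnie-Prolapse against Winnie, edgeR, DESeq2 and limma-voom each called 0 of the 9 genes, while 6 had an unadjusted p under 0.05, as did 27.8% of all genes. Of all 17041 genes, 0% were called higher and 0% lower by edgeR, and DESeq2 called 2.58% higher and 0.898% lower. At the looser limit Grem1 was higher and Smad6 was lower, beside 4.27% of all genes higher and 2.72% lower. Without Winnie-Prolapse replicates 6 and 7 the adjusted p was 0.0668 for Grem1 and 0.0817 for Smad6 (edgeR), with log2 fold changes of 1.57 and -1.30. With 1 library left out, each passed the looser limit in 7 of 14 fits. The adjusted p was 0.0555 to 0.0643 for Grem1 without Winnie replicates 4, 5, 6 or 7 or Winnie-Prolapse replicates 4, 5 or 6, and 0.0526 to 0.0655 for Smad6 without Winnie replicates 4, 5 or 6 or Winnie-Prolapse replicates 2, 4, 5 or 6. The ranges of all 9 genes overlapped, and 0.962% of all genes had ranges that did not.

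**Figure D1:**
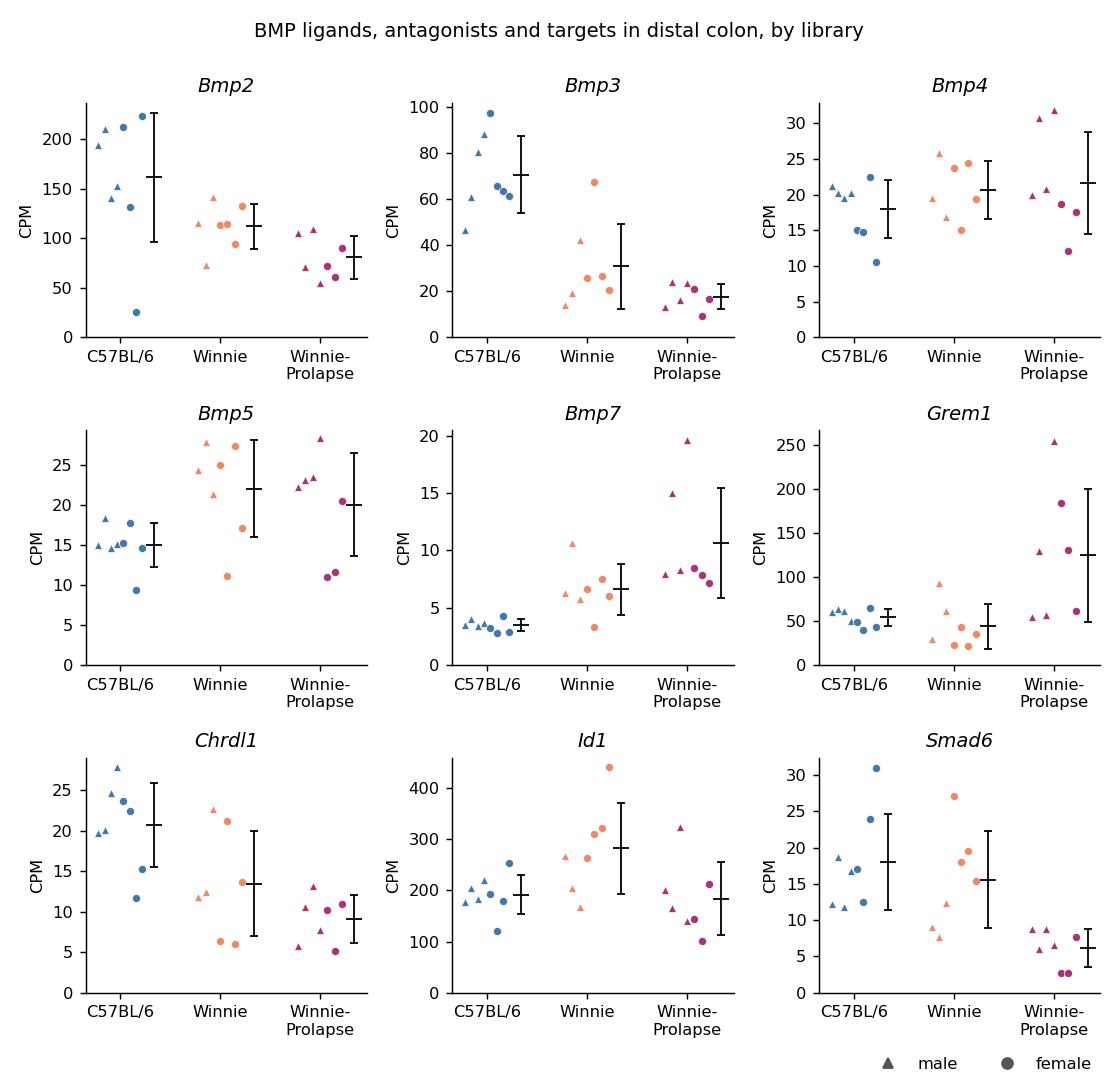
Level (CPM) of each gene in every library (triangles, males; circles, females), with the group mean and SD in black (n = 8, 7 and 7). In Winnie-Prolapse, Bmp3 and Smad6 lie below and Bmp7 above every C57BL/6 library, and the C57BL/6 library with the low Bmp2 level of 25.5 CPM is replicate 7.

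**Figure D2:**
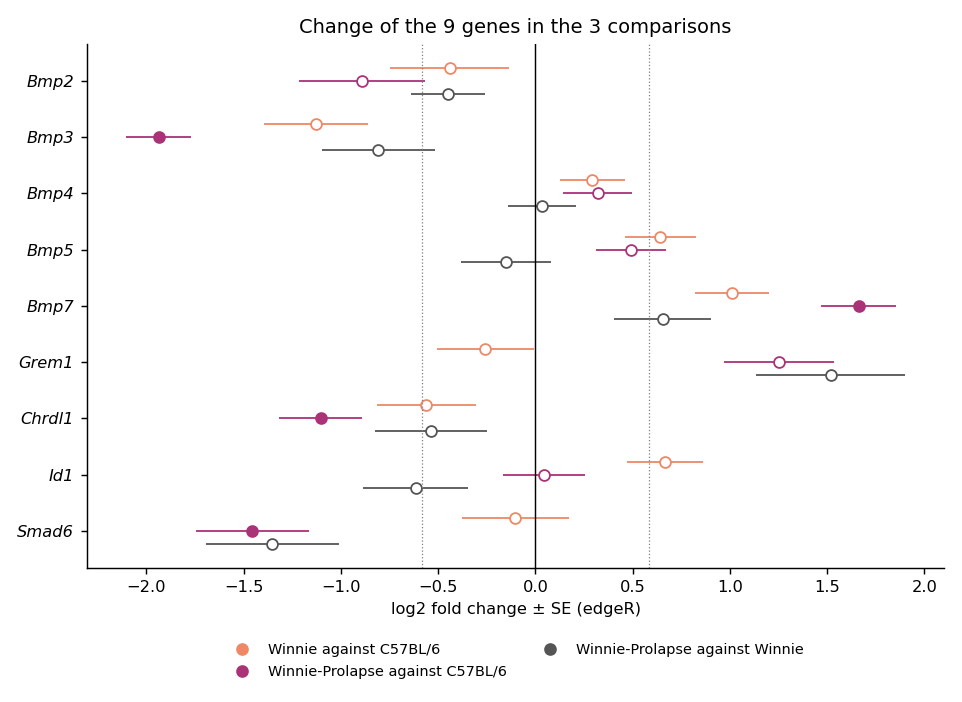
Log2 fold change with SE of the 9 genes in the 3 comparisons, edgeR quasi-likelihood test. Filled points are called genes and open points are not, and dotted lines mark 1.5-fold. The filled points all belong to Winnie-Prolapse against C57BL/6.

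Of the 5 member ligands, Bmp3 was the one called lower in Winnie-Prolapse against C57BL/6. Bmp3 is an atypical BMP, best known for opposing the bone-forming BMPs, and lies on chr5:98854415-98884396 (GRCm38, plus strand). Its level was 46.7 to 97.3 CPM (median 64.7) in C57BL/6, 14.0 to 67.4 CPM (median 25.7) in Winnie and 9.31 to 23.9 CPM (median 16.5) in Winnie-Prolapse. Every Winnie-Prolapse library was below every C57BL/6 library, whereas Winnie replicate 5, at 67.4 CPM, sat among the C57BL/6 values. Bmp3 was downregulated in Winnie-Prolapse against C57BL/6 by a log2 fold change of -1.94 ± 0.17 (adjusted p = 5.26e-07, edgeR). In Winnie against C57BL/6 the log2 fold change was -1.13 ± 0.27 (adjusted p = 0.00939, edgeR), and without Winnie replicate 5 it was -1.43 with an adjusted p of 0.000362, which passes the call in a fit that called 1.38% of all genes lower. Between Winnie-Prolapse and Winnie it was -0.81 ± 0.29 (adjusted p = 0.0867, edgeR).

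Bmp7 moved the opposite way and had the lowest mean level per kb of exon of the 9 genes in C57BL/6 and in Winnie. In Winnie the means of Bmp7 (1.64 CPM per kb) and Chrdl1 (1.99 CPM per kb) had overlapping ranges of ± 1 SD. Bmp7 encodes a ligand of the BMP5/6/7 subgroup, known in kidney and eye development, and lies on chr2:172868012-172940321 (minus strand). C57BL/6 libraries held 2.75 to 4.31 CPM (median 3.44), Winnie libraries 3.31 to 10.6 CPM (median 6.27) and Winnie-Prolapse libraries 7.17 to 19.6 CPM (median 8.26). The lowest Winnie-Prolapse library was above the highest C57BL/6 library, and Winnie replicate 5 was again the Winnie library nearest to C57BL/6. Even the lowest value of Bmp7 rested on 70 counts. Bmp7 was upregulated in Winnie-Prolapse against C57BL/6 by a log2 fold change of 1.66 ± 0.19 (adjusted p = 6.41e-06, edgeR). For Winnie against C57BL/6 the log2 fold change was 1.01 ± 0.19 (adjusted p = 0.00384, edgeR), and without Winnie replicate 5 it was 1.13 with an adjusted p of 0.0002, in a fit that called 2.5% of all genes higher. Between Winnie-Prolapse and Winnie it was 0.66 ± 0.25 (adjusted p = 0.105, edgeR).

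Within each library, the ratio of Bmp7 to Bmp3 in counts per kb of exon put both genes on a common scale. The ratio was 0.0613 to 0.139 (median 0.0816) in C57BL/6, 0.0906 to 1.02 (median 0.516) in Winnie and 0.747 to 1.55 (median 1.10) in Winnie-Prolapse. Bmp3 thus exceeded Bmp7 per length in all C57BL/6 libraries. Neither gene overlapped between C57BL/6 and Winnie-Prolapse, and they changed in opposite directions. Their ratios therefore could not overlap and add no separation of their own. A ratio within a library shows unequal change of its 2 genes and not which of them changed.

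Bmp2, which signals at the crypt top and surface, was the most abundant ligand in each group and lies on chr2:133552159-133562885 (plus strand). It ran from 25.5 to 224 CPM (median 173) in C57BL/6, from 73.1 to 141 CPM (median 114) in Winnie and from 55.3 to 110 CPM (median 71.9) in Winnie-Prolapse. Apart from C57BL/6 replicate 7 at 25.5 CPM, the C57BL/6 libraries lay at 132 CPM or above, higher than every Winnie-Prolapse library. The log2 fold change in Winnie-Prolapse against C57BL/6 was -0.89 ± 0.32 (adjusted p = 0.0294, edgeR), short of a call. Without C57BL/6 replicate 7 it was -1.05 with an adjusted p of 0.000321, which is a call. Bmp2 passed the looser limit in 8 of 15 fits with 1 library left out. Without C57BL/6 replicates 1, 5 or 8 or Winnie-Prolapse replicates 2, 4, 5 or 6, one at a time, the adjusted p was 0.0555 to 0.0655. Between Winnie and C57BL/6 the log2 fold change was -0.44 ± 0.31 (adjusted p = 0.296, edgeR), and between Winnie-Prolapse and Winnie it was -0.45 (adjusted p = 0.14, edgeR).

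Bmp4, a ligand of the mesenchyme beneath the epithelium, lies on chr14:46383520-46390669 (minus strand), and its exons overlap Gm15217 on the other strand. Its levels were 10.5 to 22.5 CPM (median 19.8) in C57BL/6, 15.1 to 25.9 CPM (median 19.6) in Winnie and 12.2 to 31.8 CPM (median 19.9) in Winnie-Prolapse. The medians lay within 1 CPM of one another and the ranges overlapped. In Winnie-Prolapse the 4 males (19.9 to 31.8 CPM) were all above the 3 females (12.2 to 18.6 CPM). The log2 fold change against C57BL/6 was 0.29 ± 0.17 in Winnie (adjusted p = 0.206, edgeR) and 0.32 ± 0.18 in Winnie-Prolapse (adjusted p = 0.138, edgeR).

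Bmp5, also a stromal ligand, lies on chr9:75775364-75900310 (plus strand), with Gm26903 on the other strand. It ran from 9.31 to 18.3 CPM (median 15.04) in C57BL/6, from 11.1 to 27.8 CPM (median 24.4) in Winnie and from 10.98 to 28.3 CPM (median 22.3) in Winnie-Prolapse. As for Bmp4, the 4 Winnie-Prolapse males (22.3 to 28.3 CPM) were all above the 3 females (10.98 to 20.5 CPM). The log2 fold change was 0.64 ± 0.18 in Winnie against C57BL/6 (adjusted p = 0.0204, edgeR) and 0.49 ± 0.18 in Winnie-Prolapse against C57BL/6 (adjusted p = 0.032, edgeR), and neither was a call. The strand setting of the counting is not given in the sources used here, so reads from these overlapping genes may not be separable for Bmp4 and Bmp5.

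Grem1 encodes gremlin 1, which binds BMP2, BMP4 and BMP7 and is made by smooth muscle and stromal cells around the crypt base. It lies on chr2:113746164-113758646 (minus strand). Levels were 40.3 to 65.5 CPM (median 55.0) in C57BL/6, 21.2 to 93.7 CPM (median 34.9) in Winnie and 54.2 to 255 CPM (median 130) in Winnie-Prolapse. Of the Winnie-Prolapse libraries, replicates 1, 3 and 7 (54.2, 56.9 and 61.2 CPM) lay within the C57BL/6 range, and the other libraries were at 130 CPM or above. The log2 fold change was 1.25 ± 0.28 in Winnie-Prolapse against C57BL/6 (adjusted p = 0.00181, edgeR) and 1.52 ± 0.38 in Winnie-Prolapse against Winnie (adjusted p = 0.0295, edgeR). Neither was a call, although DESeq2 called the first (adjusted p = 6.5e-05), as did edgeR without Winnie-Prolapse replicate 1 (adjusted p = 0.000632) and without replicate 3 (adjusted p = 0.00069). Between Winnie and C57BL/6 the log2 fold change was -0.26 ± 0.25 (adjusted p = 0.465, edgeR).

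Chrdl1 encodes chordin-like 1, a secreted antagonist of BMP4, and lies on chrX:143285674-143394262 (minus strand). It ran from 11.7 to 27.9 CPM (median 21.3) in C57BL/6, from 6.07 to 22.7 CPM (median 12.4) in Winnie and from 5.16 to 13.2 CPM (median 10.2) in Winnie-Prolapse. The C57BL/6 and Winnie-Prolapse ranges overlapped only through C57BL/6 replicate 7 (11.7 CPM) and the highest Winnie-Prolapse library, replicate 3. Chrdl1 was downregulated in Winnie-Prolapse against C57BL/6 (log2 fold change -1.10 ± 0.21, adjusted p = 0.00053, edgeR). The log2 fold change was -0.56 ± 0.25 in Winnie against C57BL/6 (adjusted p = 0.111, edgeR). With 1 library left out the call held in 4 of 15 fits, and without C57BL/6 replicates 1 to 6 or Winnie-Prolapse replicates 1, 2, 4, 5 or 6, one at a time, the adjusted p was 0.00105 to 0.00183.

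In Winnie-Prolapse the antagonists thus lay on opposite sides of C57BL/6, Grem1 at the looser limit. The ratio of Grem1 to Chrdl1 in counts per kb was 2.90 to 9.11 (median 4.35) in C57BL/6, 3.35 to 12.3 (median 4.39) in Winnie and 7.04 to 53.7 (median 20.1) in Winnie-Prolapse. The ratio of Bmp2 to Grem1 was 0.455 to 5.97 (median 3.78) in C57BL/6, 0.910 to 5.85 (median 4.42) in Winnie and 0.253 to 2.28 (median 0.641) in Winnie-Prolapse. The lowest C57BL/6 value of this second ratio was that of replicate 7, which held the low Bmp2 level. Bmp4 to Grem1 had medians of 0.609, 1.03 and 0.436 in C57BL/6, Winnie and Winnie-Prolapse.

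**Figure D3:**
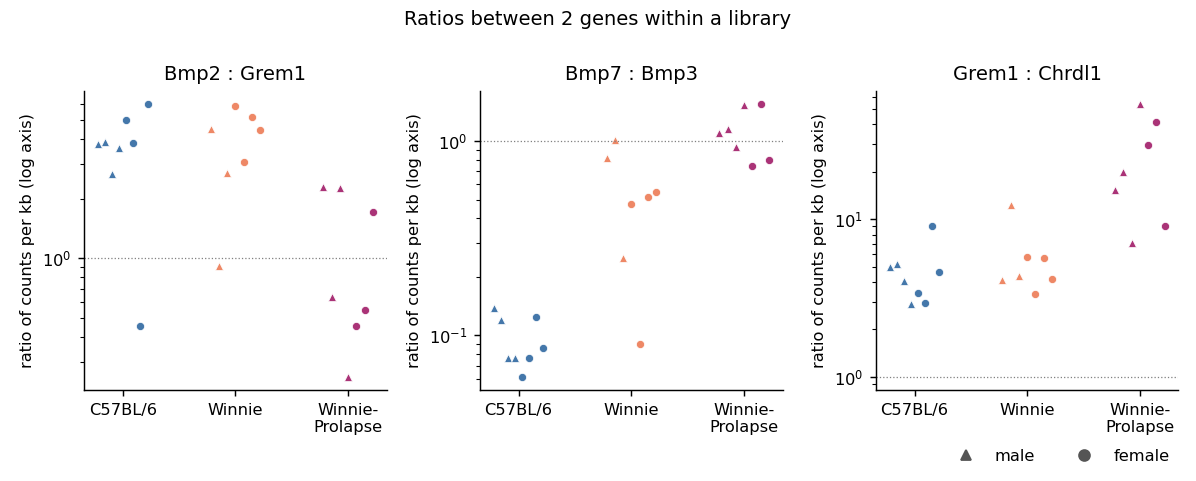
Ratio of 2 genes in counts per kb of exon within each library, on log axes (triangles, males; circles, females). The dotted line marks equal levels. Bmp7 : Bmp3 lies at 0.747 to 1.55 in Winnie-Prolapse and 0.0613 to 0.139 in C57BL/6, which follows from the levels of the 2 genes, and the Bmp2 : Grem1 ratios overlap.

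Smad6 encodes an inhibitory SMAD that BMP signaling induces and that blocks the BMP receptors in return. It lies on chr9:63953076-64022059 (minus strand). Levels were 11.8 to 30.9 CPM (median 16.9) in C57BL/6, 7.63 to 27.1 CPM (median 15.4) in Winnie and 2.66 to 8.84 CPM (median 6.51) in Winnie-Prolapse. Every Winnie-Prolapse library was below every C57BL/6 library, and Winnie spanned both. Smad6 was downregulated in Winnie-Prolapse against C57BL/6 (log2 fold change -1.46 ± 0.29, adjusted p = 0.000664, edgeR). With 1 library left out the call held in 6 of 15 fits. Without C57BL/6 replicates 2, 4, 5, 7 or 8 or Winnie-Prolapse replicates 2, 4, 5 or 6, one at a time, the adjusted p was 0.00124 to 0.00196. Against Winnie the log2 fold change in Winnie-Prolapse was -1.35 ± 0.34 (adjusted p = 0.0292, edgeR), and that of Winnie against C57BL/6 was -0.10 ± 0.28 (adjusted p = 0.803, edgeR).

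The Smad6 values are given by sex because they separated in 1 group. In C57BL/6 the males were at 11.8 to 18.7 CPM and the females at 12.5 to 30.9 CPM. In Winnie the 3 males (7.63 to 12.4 CPM) were all below the 4 females (15.4 to 27.1 CPM). In Winnie-Prolapse the males were at 5.98 to 8.84 CPM and the females at 2.66 to 7.69 CPM. The sex by group interaction for Winnie-Prolapse, females minus males, was -1.19 ± 0.49 on the log2 scale (adjusted p = 0.96, edgeR). That test called 0 of 18911 genes at an adjusted p under 0.05, and among the 9 genes and both interaction terms the unadjusted p was under 0.05 only for this Smad6 term (0.0251).

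Id1 encodes an inhibitor of basic helix-loop-helix factors and is a direct BMP target. It lies on chr2:152736251-152737410 (plus strand) and had the highest level per kb of the 9 genes in every group. Levels were 121 to 253 CPM (median 188) in C57BL/6, 167 to 442 CPM (median 268) in Winnie and 102 to 324 CPM (median 166) in Winnie-Prolapse. The ranges overlapped between all groups. The log2 fold change was 0.66 ± 0.19 in Winnie against C57BL/6 (adjusted p = 0.0223, edgeR), 0.04 ± 0.21 in Winnie-Prolapse against C57BL/6 (adjusted p = 0.873, edgeR) and -0.62 in Winnie-Prolapse against Winnie (adjusted p = 0.155, edgeR). None was a call by edgeR.

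These promoters are shown because their genes, Grem1 and Smad6, were the 2 that passed the looser limit between Winnie-Prolapse and Winnie, in opposite directions. Each is the 250 bases before the RefSeq start of transcription (GRCm38.p6), read 5′ to 3′ on the gene's strand. Capitals mark GGCGCC, the sequence known as a BMP-responsive SMAD element, which reads the same on both strands. It was found in 9.59% of 32851 mouse promoter windows of this length, and the shorter SMAD box CAGAC, or GTCTG on the other strand, in 42.2%.
Grem1 promoter, chr2:113758649-113758898: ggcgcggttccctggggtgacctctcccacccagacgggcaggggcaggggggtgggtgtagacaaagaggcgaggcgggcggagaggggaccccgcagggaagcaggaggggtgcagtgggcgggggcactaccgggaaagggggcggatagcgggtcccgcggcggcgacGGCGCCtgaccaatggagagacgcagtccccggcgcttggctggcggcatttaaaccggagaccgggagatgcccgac
Smad6 promoter, chr9:64022060-64022309: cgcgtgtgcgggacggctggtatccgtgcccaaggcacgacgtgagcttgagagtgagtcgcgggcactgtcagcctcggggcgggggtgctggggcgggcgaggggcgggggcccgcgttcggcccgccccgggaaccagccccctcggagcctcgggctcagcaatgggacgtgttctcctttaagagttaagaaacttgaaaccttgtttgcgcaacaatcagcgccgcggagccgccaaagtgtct
The Grem1 window held 1 GGCGCC, starting 78 bases before the start, and 1 CAGAC or GTCTG. The Smad6 window held neither motif, which says only that these letters are not in this window. GC content was 72% for Grem1 and 66.8% for Smad6.

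Per kb of exon, the order of the genes in C57BL/6 was Id1 (165 CPM per kb), Bmp2 (45.4), Grem1 (13.1), Bmp3 (9.54), Bmp4 (8.00), Smad6 (5.62), Bmp5 (3.72), Chrdl1 (3.06) and Bmp7 (0.863). The ranges of mean ± 1 SD overlapped between neighbours from Grem1 down to Chrdl1 in that order, while they did not between Id1 and Bmp2, Bmp2 and Grem1, or Chrdl1 and Bmp7. In Winnie-Prolapse, Grem1 (30.1 CPM per kb) came above Bmp2 (22.7), although the ranges of mean ± 1 SD overlapped. Bmp7 (2.64 CPM per kb) stood next to Bmp3 (2.39) there, and they did not differ beyond their spread.

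Other genes of the pathway, with related ligands of the same superfamily, were taken from 5 lists. In the list of other ligands (BMPs, growth differentiation factors and activin subunits), 7 of 15 genes were tested in Winnie-Prolapse against C57BL/6, of which 2 were upregulated and 1 downregulated. Over all genes tested, 9.84% were called higher and 8.47% lower. Inhbb and Inhba, which encode the activin subunits beta B and beta A, were upregulated (log2 fold change 3.36 ± 0.32, adjusted p = 1.21e-06, and 3.33 ± 0.42, adjusted p = 1.41e-05, edgeR). Both upregulated genes thus encode activin subunits, and no BMP or growth differentiation factor of the list was called higher by edgeR. Bmp8b had a log2 fold change of 1.57 ± 0.59 (adjusted p = 0.0358, edgeR) and was called higher by limma-voom (adjusted p = 0.00062) and by edgeR without C57BL/6 replicate 7 (log2 fold change 2.51, adjusted p = 0.000122). Inhbb ran from 0.479 to 1.20 CPM in C57BL/6 and from 4.15 to 18.8 CPM in Winnie-Prolapse, with no overlap. Gdf10, a ligand close to Bmp3, was downregulated (log2 fold change -2.10 ± 0.37, adjusted p = 0.000242, edgeR), from 5.62 to 22.9 CPM in C57BL/6 to between 0.727 and 3.68 CPM in Winnie-Prolapse. Bmp10 and Gdf2 were at 0 in every library. The median log2 fold change of the list was 0.29, beside -0.01 over all genes.

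Among receptors and co-receptors, 11 of 12 genes were tested, of which Eng was upregulated and Rgmb downregulated. The 2 calls stand beside 18.3% of all genes called in this comparison, 9.84% higher and 8.47% lower. Eng, the endothelial co-receptor endoglin, had a log2 fold change of 1.34 ± 0.26 (adjusted p = 0.000575, edgeR), and Rgmb, a membrane-bound BMP co-receptor, of -0.60 ± 0.11 (adjusted p = 0.000401, edgeR). Without C57BL/6 replicates 1, 2, 3, 5 or 8 or Winnie-Prolapse replicate 5, one at a time, the adjusted p of Eng was 0.00121 to 0.00169. Eng was also not called by limma-voom. Rgmb fell short of 1.5-fold without C57BL/6 replicate 7 (log2 fold change -0.52), without Winnie-Prolapse replicates 3 or 4 (-0.56 each) and without replicates 6 and 7 together (-0.56). The other 9 genes were not called, and the list's median log2 fold change was -0.01. The core receptors Bmpr1a and Bmpr2 had log2 fold changes of -0.03 ± 0.12 and 0.29 ± 0.12. Endothelial markers had 1 of 10 genes called higher in the same comparison, and their sum was 70.2 to 93.0 CPM in C57BL/6 and 84.9 to 224 CPM in Winnie-Prolapse. Their part in the Eng result was not tested.

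Of the other antagonists and extracellular modulators, 15 of 18 genes were tested, with 3 upregulated and 1 downregulated, beside 9.84% and 8.47% of all genes. The upregulated genes were Chrdl2, chordin-like 2 (log2 fold change 2.75 ± 0.29, adjusted p = 3.05e-06, edgeR), Bmper (1.84 ± 0.30, adjusted p = 0.000125) and Chrd, chordin (1.15 ± 0.21, adjusted p = 0.000399). The downregulated gene was Crim1, which encodes a membrane protein that tethers BMPs (-1.61 ± 0.16, adjusted p = 2.19e-06). Chrdl2 was thus called higher where Chrdl1 was called lower. Chrdl2 rose from 1.30 to 3.01 CPM in C57BL/6 to between 6.01 and 21.1 CPM in Winnie-Prolapse. For Chrd, the adjusted p was 0.00117 without C57BL/6 replicate 2 and 0.00104 without Winnie-Prolapse replicate 5. The list's median log2 fold change was 0.30.

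Among 7 SMADs and their ubiquitin ligases, 1 gene was called, as lower, beside 8.47% of all genes. Smad9, a receptor-activated SMAD, was downregulated (log2 fold change -1.38 ± 0.25, adjusted p = 0.000339, edgeR), and it was not a call without Winnie-Prolapse replicate 2 (adjusted p = 0.00106), replicate 5 (0.0012) or replicates 6 and 7 together (0.00185). Of 6 other target genes, 4 were tested and 0 called by edgeR. The shares of all genes were 17.7% lower at the looser limit and 58.5% with an unadjusted p under 0.05. Of the 4 tested, 2 passed the looser limit as lower and had an unadjusted p under 0.05. These were Id4 (log2 fold change -1.16 ± 0.24, adjusted p = 0.00101, edgeR) and Id3 (-0.77 ± 0.29, adjusted p = 0.0385, edgeR). Id4 was called lower by DESeq2, by limma-voom (adjusted p = 0.000655) and by edgeR without C57BL/6 replicate 7 (0.000566) or Winnie-Prolapse replicate 3 (7.44e-05). DESeq2 called 17 genes over the 5 lists in this comparison and limma-voom 11, beside 10 by edgeR, while they called 23%, 17.6% and 18.3% of all genes. With edgeR, 8 were called without Winnie-Prolapse replicates 6 and 7 and 12 without C57BL/6 replicate 7, beside 12.4% and 20.1% of all genes.

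In Winnie against C57BL/6, edgeR and limma-voom called 0 genes of these 5 lists and DESeq2 called 4 (Fstl3, Gdf10, Inhbb and Nbl1), beside 6.32% of all genes. In Winnie-Prolapse against Winnie, edgeR and limma-voom called 0 and DESeq2 called 6 (Bmper, Chrdl2, Fst, Inhba, Inhbb and Smad9), beside 3.48% of all genes. Among these lists, 2 of the ligands tested in Winnie against C57BL/6 passed the looser limit higher and 1 lower, and 4 antagonists passed it lower with 0 higher, beside 7.42% and 8.53% of all genes. The antagonists past that limit were 4 higher and 4 lower in Winnie-Prolapse against C57BL/6 (16.7% and 17.7% of all genes), and 4 higher and 1 lower in Winnie-Prolapse against Winnie (4.27% and 2.72%). The number of list genes with an unadjusted p under 0.05 was 5 ligands, 2 receptors, 7 antagonists, 2 SMADs and 0 targets in Winnie against C57BL/6, and 4, 4, 8, 2 and 2 in Winnie-Prolapse against Winnie. The genes tested in these lists numbered 7, 11, 15, 7 and 4, and the shares of all genes at this limit were 39.9% and 27.8%.

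**Figure D4:**
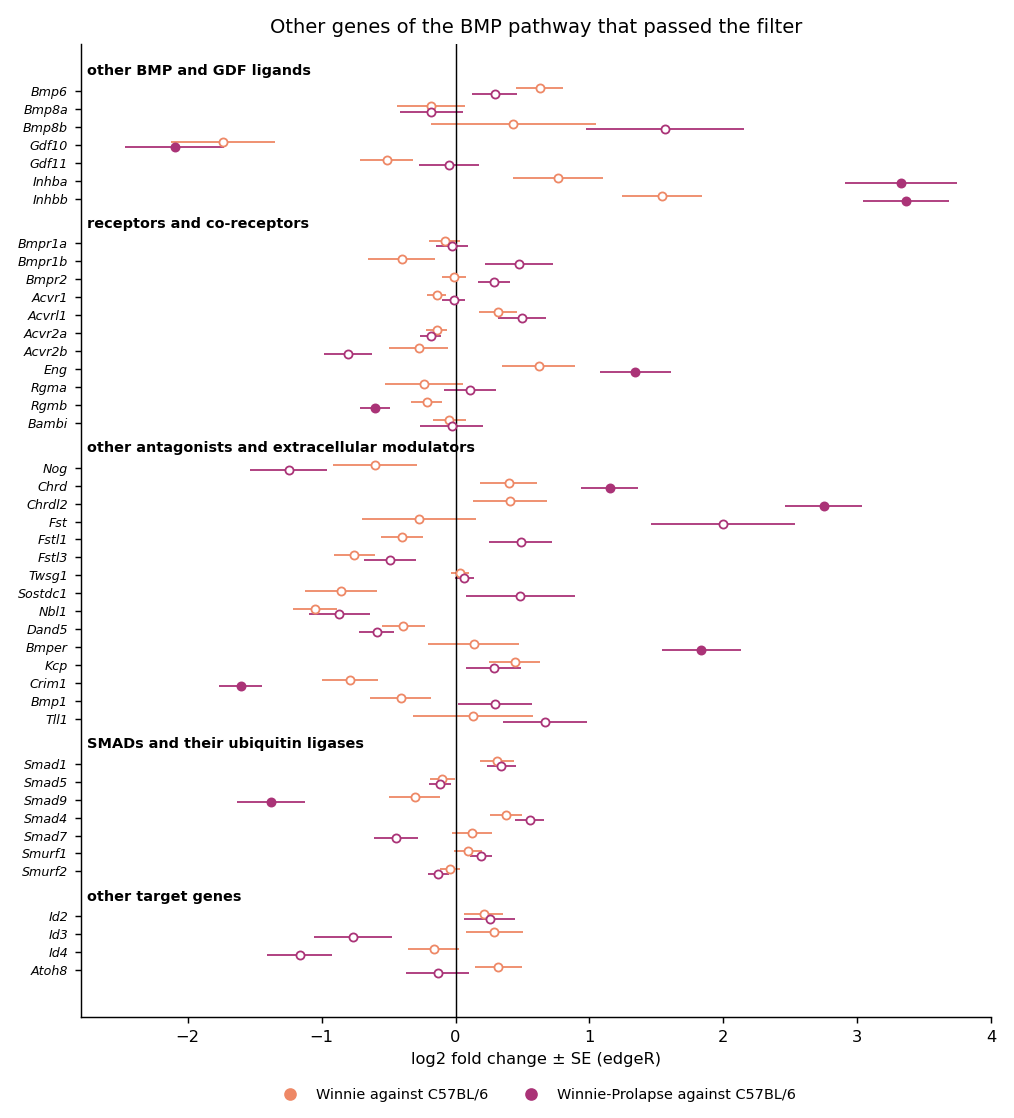
Log2 fold change with SE of the other pathway genes that passed the filter, against C57BL/6, edgeR. Filled points are called genes and open points are not. The called genes all belong to Winnie-Prolapse against C57BL/6. Inhbb and Inhba, which encode activin subunits and not BMPs, lie farthest to the right at 3.36 and 3.33.

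Cell type markers moved in the same comparisons. In Winnie against C57BL/6, edgeR called 0 of them. At the looser limit, 9 of 10 smooth muscle and 10 of 10 enteric neuron and glia markers were lower there. Of 10 leukocyte markers 5 were higher, and of 10 PDGFRA fibroblast and telocyte markers 1 was higher and 2 were lower. The shares of all genes at that limit were 7.42% higher and 8.53% lower. In bulk tissue, fewer cells of a type and less RNA per cell cannot be told apart. For Winnie-Prolapse against C57BL/6, edgeR called 9.84% of all genes higher and 8.47% lower. All 10 smooth muscle markers were downregulated in Winnie-Prolapse against C57BL/6, with summed levels of 7924 to 15032 CPM in C57BL/6, 2363 to 9079 CPM in Winnie and 1678 to 3857 CPM in Winnie-Prolapse, and no gene at 0. Of 10 enteric neuron and glia markers, 7 were downregulated, with sums of 73.5 to 175 CPM in C57BL/6 and 29.8 to 58.6 CPM in Winnie-Prolapse. Of 10 leukocyte markers, 6 were upregulated, with sums of 48.7 to 316 CPM in C57BL/6 and 196 to 593 CPM in Winnie-Prolapse. Of 10 squamous epithelium markers, 5 passed the filter on low counts and were upregulated. Krt5 and Krt6b averaged 0.277 and 0.0388 CPM in C57BL/6 and 204 and 121 CPM in Winnie-Prolapse. They did not pass the filter in Winnie against C57BL/6, so the filter partly fixed this count. The summed level of the 10 markers was 3.81 to 47.6 CPM in C57BL/6 and 107 to 3600 CPM in Winnie-Prolapse. Of 10 PDGFRA fibroblast and telocyte markers, Nrg1 was upregulated, and the sums overlapped (358 to 525 CPM in C57BL/6, 332 to 1055 CPM in Winnie-Prolapse). Winnie-Prolapse replicate 4, the highest in Grem1, Bmp4, Bmp5 and Bmp7, was also the highest in its group in the fibroblast, endothelial and leukocyte sums. The part of these cell types in the results on the 9 genes was not tested.

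**Figure D5:**
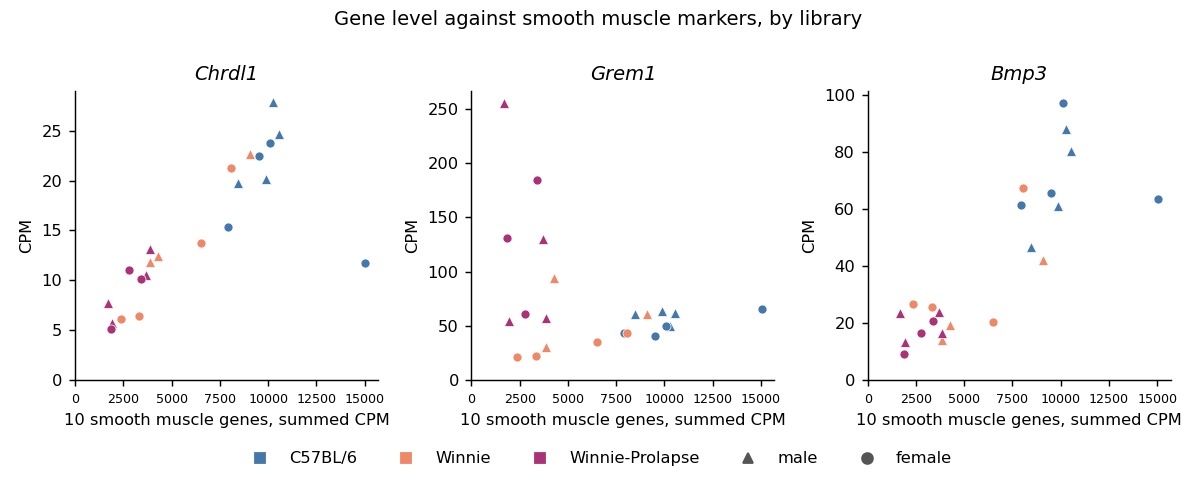
Level of Chrdl1, Grem1 and Bmp3 (CPM) against the summed CPM of 10 smooth muscle genes, 1 point per library, coloured by group (triangles, males; circles, females). Winnie-Prolapse libraries lie at sums of 1678 to 3857 CPM, where Chrdl1 is at 5.16 to 13.2 CPM and Grem1 at 54.2 to 255 CPM.

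The genes most like each member were taken by Pearson's r of log2 CPM over the 22 libraries, among 11862 genes. These values describe libraries that share groups and tissue composition. They were Ttc3 (r = 0.946) for Bmp3, Slc16a6 (0.939) and S100a11 (0.938) for Bmp7, Slc9a2 (0.933) and Acer1 (0.930) for Smad6, and Adgra3 (0.928) and 2310079G19Rik (0.925) for Bmp2. Heg1 (0.917) and Tead1 (0.915) came first for Grem1, Gfra4 (0.905) and Csrp1 (0.897) for Chrdl1, Sri (0.849) and S100a1 (0.840) for Id1, Dis3l2 (0.822) and Cx3cr1 (0.815) for Bmp5, and Rabepk (0.777) and Tagln2 (0.768) for Bmp4. After each group's mean was taken out, r fell most for the Bmp7 pair, to 0.729 for Slc16a6, and stayed at 0.930 for Bmp2 with Adgra3. Among the members themselves, Bmp3 and Bmp7 ran most opposite over all libraries (r = -0.84) and less so within groups (-0.36), whereas Grem1 and Smad6 had -0.81 over all libraries and, as the most opposite pair within groups, -0.68.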

How the data were processed

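The deposited table holds raw read counts per gene, which the authors made with RNAsik 1.5.4, GRCm38 and featureCounts from stranded poly(A) libraries sequenced in paired ends. STAR, featureCounts and limma are named in the submitters' processing notes. The annotation release, strand setting and handling of shared reads are not given in the sources used here. Libraries held 24.8 to 36.3 M counts, and the upper limit for a count of 0, taken as 3 counts, is 0.0825 to 0.121 CPM. That limit reflects counting error alone, as reads carried no molecular identifiers.

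Counts were tested with edgeR 4.0.16 (R 4.3.3) by the quasi-likelihood F test, with TMM normalization, filterByExpr and Benjamini-Hochberg adjustment over all genes, each comparison on its own 2 groups without covariates. SE was the size of the log2 fold change divided by the square root of F. CPM was the count over the library total, and CPM per kb used the union exon length of GENCODE M21. A prior count of 2 entered log2 CPM, and genes most like a member needed a mean CPM of at least 5. Of the 9 members, 4 had a RefSeq promoter window. Alternatives were DESeq2 1.42.0, limma-voom (limma 3.58.1), other scaling and filters, sex as a covariate, each sex alone, all groups in 1 fit, a looser limit and libraries left out. The bias-adjusted edgeR fit was added after seeing the data. No pair of libraries in a group agreed within sampling noise. The study's methods give fewer Winnie colon samples than the labels do, without saying which, and all labelled libraries were used. The labels name no batch and give each mouse 1 library, and mice came from 1 breeding colony. The test was tested on simulated data.

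The members and lists were chosen with earlier results of these data known. Named pathway genes were called genes, at most 4 per list and comparison by size of change, and for each member the 2 most alike genes. Bmp8b, Bmpr1a, Bmpr2, Chrd, Id3, Id4 and the genes named from DESeq2's calls were named after their values were seen. Hjv was found by an older symbol, Hfe2. Some items are not reported here, and the list counts leave them out.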

Additional observations from a re-analysis of the deposited data

Results flagged for a closer look

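In C57BL/6, replicate 7 lay far from the other libraries of its group in 2 of the 9 genes, by the gap to the nearest library relative to the range of the group. Its Bmp2 level was 25.5 CPM, with the next lowest library at 132 CPM. Its Bmp5 level was 9.31 CPM, with the next lowest library at 14.5 CPM. These were 2 of 27 sets of libraries checked (9 genes in 3 groups), and chance gives about 1 in 20. The same library had the highest Muc2 level and smooth muscle sum and the lowest leukocyte sum of its group. The part of these in its Bmp2 and Bmp5 levels was not tested.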

How the results depend on the processing

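No paired analysis was possible because the labels give no replicate numbers that pair animals between groups. In Winnie against C57BL/6 the number of members called, 0 by edgeR, was 2 with DESeq2 (6.32% of all genes) and 4 at the looser limit (15.9%), and 0 to 2 with each library left out in turn (0% to 3.89%). In Winnie-Prolapse against C57BL/6 it was 4, and became 1 in males alone (Bmp3), 0 in females alone and 2 (Bmp7 and Bmp3) without Winnie-Prolapse replicates 6 and 7, beside 18.3%, 1.76%, 1.45% and 12.4% of all genes. With each library left out it was 2 to 5 (14.4% to 20.8% of all genes), and Bmp3 and Bmp7 were called in 15 of 15 fits. In females alone, Bmp3 had a log2 fold change of -2.08 (adjusted p = 0.00176, edgeR) and Bmp7 of 1.41 (adjusted p = 0.0039), and in males alone Bmp7 had 1.79 (adjusted p = 0.00204). Fewer mice per group enter these fits. In Winnie-Prolapse against Winnie the count was 2 at the looser limit, beside 6.99% of all genes. The sign turned for 5 changes that were not called: Grem1 in Winnie against C57BL/6 in males alone (0.0676), Smad6 there in females alone (0.0401) and with each library left out (-0.302 to 0.0536), Id1 in Winnie-Prolapse against C57BL/6 by library size (-0.0497), limma-voom (-0.0326), in females alone (-0.137) and with each library left out (-0.181 to 0.142), Bmp4 in Winnie-Prolapse against Winnie with sex as a covariate (-0.0224), in females alone (-0.362) and with each library left out (-0.0574 to 0.103), and Id1 there in males alone (0.00908). The cause was not tested. The lowest count of a member in any library was 66 (Smad6 in Winnie-Prolapse). Of the other log2 fold changes under alternatives, 628 kept their direction and side of the threshold, 31 were no longer calls and 8 became calls.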
